A study of Mus musculus with 7 samples.

Results

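Expression of 10 genes of homeostatic microglia was followed in primary neurospheres grown from the adult mouse hippocampus. The genes were chosen by name (P2ry12, P2ry13, Tmem119, Cx3cr1, Csf1r, Siglech, Gpr34, Sall1, Fcrls and Olfml3), and 10 of 10 were found among the 24346 genes of the expression table. RNA was measured in 7 libraries, each from the neurospheres of 1 mouse: 4 control mice, named by the labels WT_215, WT_116, WT_213 and WT_220, and 3 mice with Cre recombination of Med23 aimed at the Nestin lineage, or Med23 CKO, named KO_117, KO_214 and KO_218. Med23 is a subunit of Mediator, the complex that links transcription factors to RNA polymerase II. Med23 CKO mice carried Nestin-CreER and Med23 flox/flox, in which Cre is driven by the promoter of Nestin, a gene of neural stem cells and not of the myeloid lineage. The paper states that endothelial cells express Cre from this promoter too. Controls, labelled wild type, were littermates that the methods describe as Med23 flox/+ or Med23 flox/flox. All mice were C57/BL6, were given 200 mg/kg of tamoxifen on each of 5 days, and were 2 months old when the cells were taken. The labels place the tamoxifen at 2 months of age, whereas the methods place it earlier for cultures.

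Microglia are the resident macrophages of the brain. They arise outside the neural lineage and live on signals through the receptor Csf1r, while TGF-beta keeps up the set of genes that sets them apart from other macrophages. In the healthy brain these genes include receptors with which microglia sense nucleotides, chemokines and lipids, and their expression is known to fall when microglia are activated or placed in culture. Neurosphere cultures start from dissociated tissue, so other cells of the hippocampus can be carried into them.

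Before the members are described, the libraries need a short account. Values are FPKM (fragments scaled by transcript length and by the size of the library), and how deeply each library was sequenced is unknown. Med23 itself had 11.4 FPKM in WT_215, 10.3 in WT_116, 12.9 in WT_213 and 10.1 in WT_220, and 9.97 in KO_117, 9.27 in KO_214 and 8.12 in KO_218. The Med23 CKO libraries were lower by little, KO_117 lay next to WT_220, and the value covers the whole gene and not the floxed part alone. Genes of neural stem cells were high in all 7 libraries, with 708 to 1694 FPKM for Vim, 203 to 1557 for Fabp7 and 61.1 to 240.5 for Nes, but genes of other brain cells were present as well, including the myelin gene Mbp at 66.5 to 2234 FPKM. A list of 8 genes used by all myeloid cells (Ptprc, Tyrobp, Fcer1g, Spi1, Laptm5, Itgb2, Coro1a and Cd53), called the myeloid reference here, had its highest value in Med23 CKO mouse KO_214 for 8 of 8 genes. Tyrobp, the adaptor that passes on signals from Trem2, had 39.0 FPKM in WT_215, 77.3 in WT_116, 109.5 in WT_213 and 14.3 in WT_220 among the controls, and 16.0 in KO_117, 492 in KO_214 and 79.7 in KO_218 among the Med23 CKO mice. Coro1a had another order, with 11.7 FPKM in WT_220 and 12.4 in KO_117, where the rest of the list was lowest. It had 4.99 to 7.35 FPKM in the remaining libraries except KO_214. The geometric mean of the 8 genes was 78.7 FPKM in KO_214, with 2.71 to 16.9 FPKM for the rest. In KO_214 these genes were 3.94 to 12.4 times the median of the other 6 libraries, and genes of endothelial cells and of mural cells and fibroblasts were high there too (medians of 5.90 and 11.8 times). The part of this in the results was not tested, and results that rest on KO_214 are given with and without it. In bulk RNA, fewer cells of a type and less RNA per cell cannot be told apart.

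**Figure D1:**
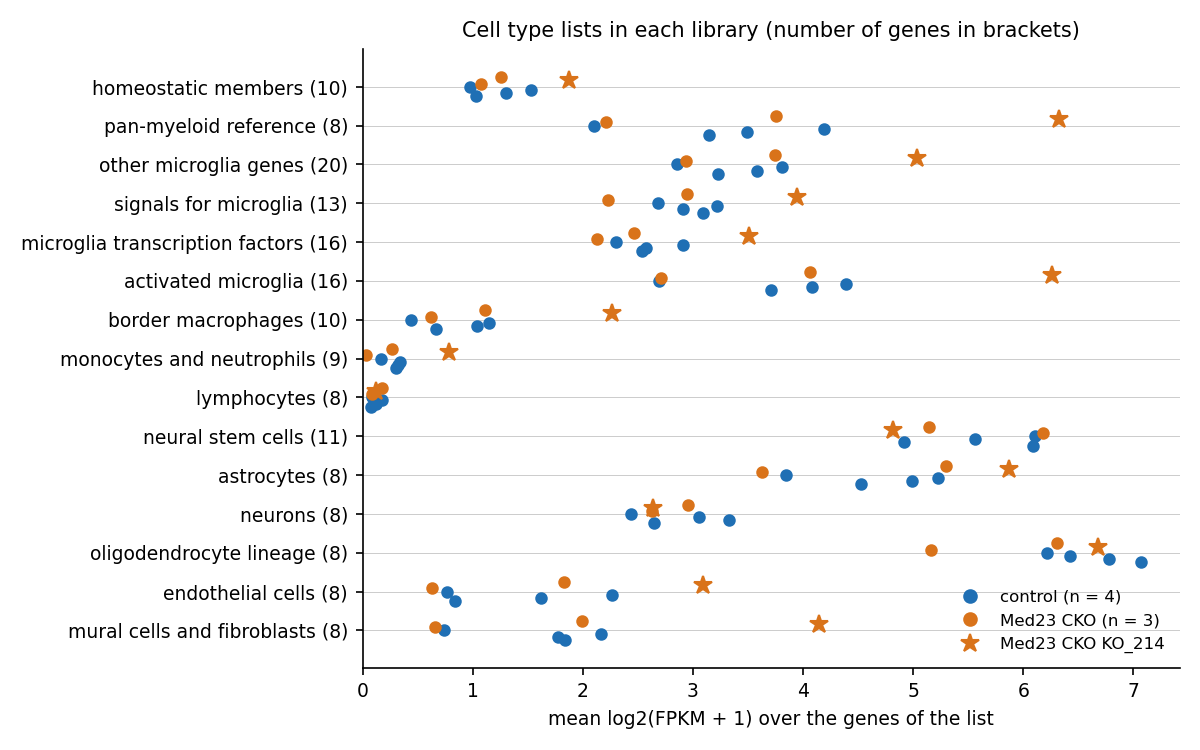
Mean log2(FPKM + 1) of lists of cell type genes (horizontal axis, rows are lists with their number of genes in brackets) in 4 control (blue) and 3 Med23 CKO libraries (orange, KO_214 as a star). The 10 homeostatic genes sat between 0.98 and 1.88, whereas the myeloid reference ranged from 2.10 to 6.33 and was highest in KO_214.

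The members differed widely in level. By their median over the 7 libraries, Sall1 (11.2 FPKM) and Olfml3 (6.60) came first, followed by Csf1r (2.45), Fcrls (2.20) and P2ry12 (0.748), and then by Tmem119 (0.349), Gpr34 (0.256), P2ry13 (0.186), Cx3cr1 (0.157) and Siglech (0.0513). For comparison, the median over the 14151 genes with a mean of at least 0.5 FPKM was between 9.44 and 11.2 FPKM in a library. P2ry13, Cx3cr1, Siglech and Gpr34 stayed under 1 FPKM in every library. No pair of neighbours in this order had ranges that stood apart. Sall1 exceeded Olfml3 in 7 of 7 libraries and Cx3cr1 exceeded Siglech in 7 of 7, but Tmem119 exceeded Gpr34 in 2 of 7 and P2ry13 exceeded Cx3cr1 in 1 of 7, so these lower members had no fixed order.

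**Figure D2:**
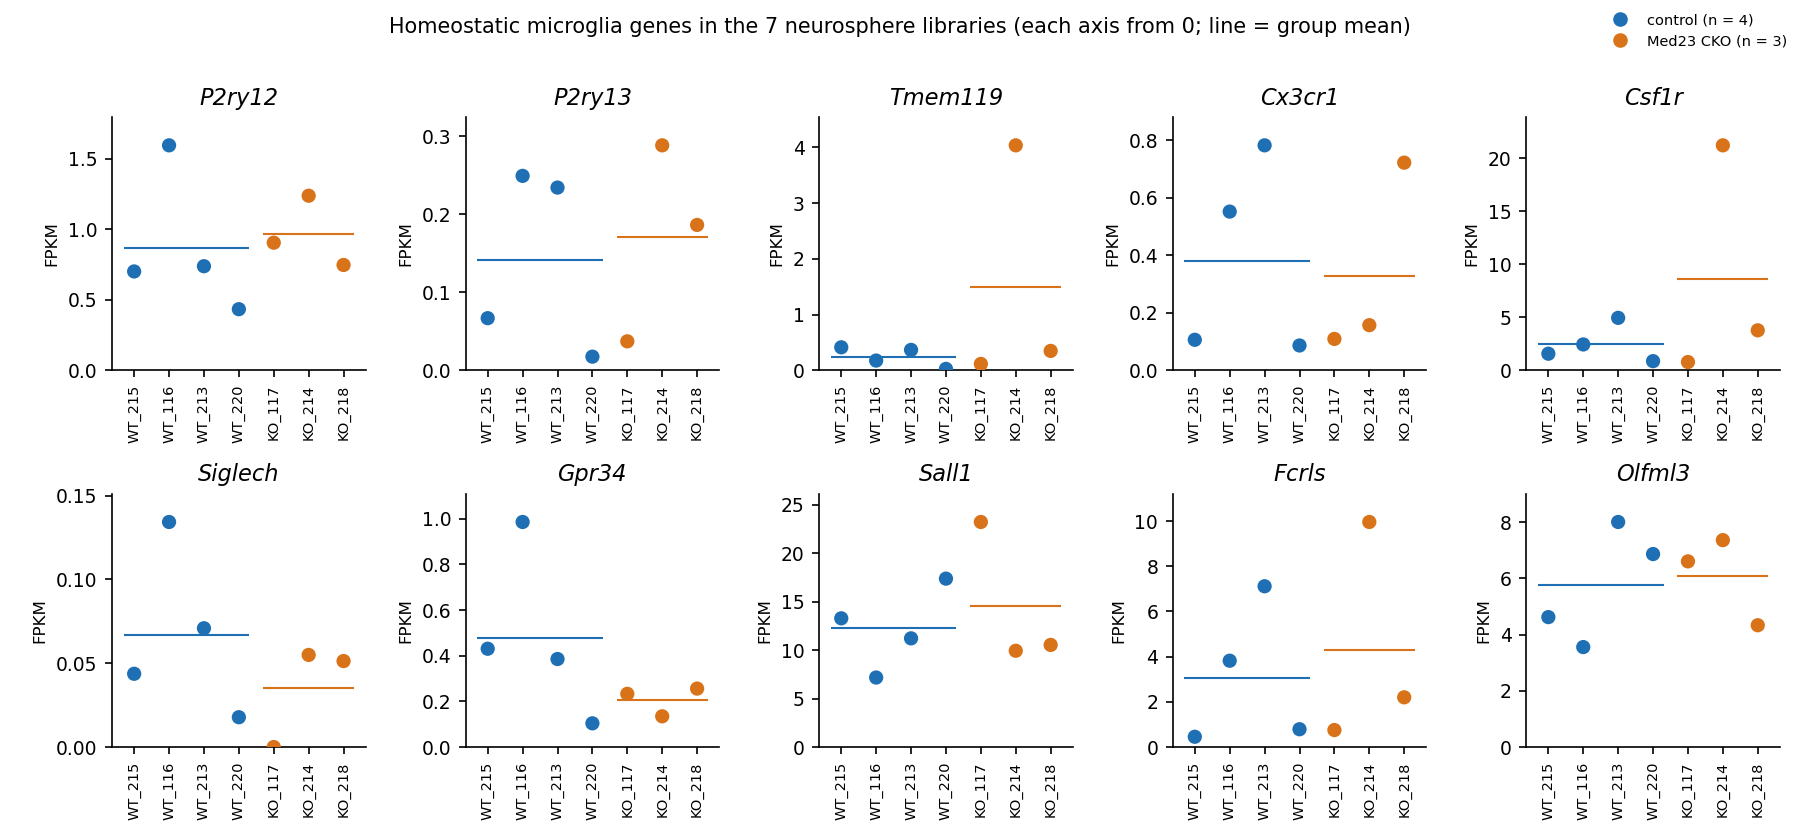
FPKM of each of the 10 genes (vertical axes, each from 0) in the 4 control (blue) and 3 Med23 CKO (orange) libraries, with lines at the group means. Csf1r and Tmem119 reached 21.2 and 4.04 FPKM in KO_214, while Gpr34 and Cx3cr1 were at 0.135 and 0.157 FPKM in the same library.

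The purinergic receptors P2ry12 and P2ry13 lie next to each other. P2ry12, the ADP receptor that steers microglial processes towards injured cells, spans 59216272 to 59262871 on the reverse strand of chromosome 3 (GRCm38, GENCODE M21). P2ry13, another receptor for ADP, spans 59207892 to 59210882 on the same strand. Both lie wholly within Med12l, a paralog of the Mediator subunit Med12 on the opposite strand, which shares 9 of the 2546 exon bases of P2ry12 and 0 of the 2528 exon bases of P2ry13. Strand was not stated for the counting, so reads from Med12l transcripts over these genes cannot be told from their own. Promoter sequences (250 bases before to 50 after the start, RefSeq, GRCm38.p6) were found for 7 of the 10 genes. Shown here, 5′ to 3′ on the strand of the gene, are those of the neighbours P2ry12 (chr3:59262936-59263235) and P2ry13 (chr3:59210833-59211132), of Fcrls (chr3:87263475-87263774), the member whose log2(FPKM + 1) had the highest correlation with that of P2ry13 (Pearson 0.93 over 7 libraries), and of Olfml3 (chr3:103737952-103738251), with a correlation of -0.082. Capitals mark GAGGAA, the core of the site of PU.1, the factor that directs the myeloid lineage, searched on both strands.
P2ry12: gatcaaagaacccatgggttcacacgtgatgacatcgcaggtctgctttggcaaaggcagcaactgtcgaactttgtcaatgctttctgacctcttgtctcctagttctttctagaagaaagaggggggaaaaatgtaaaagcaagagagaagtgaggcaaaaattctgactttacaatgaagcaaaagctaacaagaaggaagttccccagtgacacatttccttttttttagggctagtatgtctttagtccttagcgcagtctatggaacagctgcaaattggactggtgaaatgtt
P2ry13: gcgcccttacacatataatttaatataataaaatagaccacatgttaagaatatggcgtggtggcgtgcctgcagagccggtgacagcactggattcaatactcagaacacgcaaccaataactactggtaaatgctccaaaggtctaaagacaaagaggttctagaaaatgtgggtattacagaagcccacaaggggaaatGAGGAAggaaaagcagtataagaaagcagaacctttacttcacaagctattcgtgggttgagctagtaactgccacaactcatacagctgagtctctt
Fcrls: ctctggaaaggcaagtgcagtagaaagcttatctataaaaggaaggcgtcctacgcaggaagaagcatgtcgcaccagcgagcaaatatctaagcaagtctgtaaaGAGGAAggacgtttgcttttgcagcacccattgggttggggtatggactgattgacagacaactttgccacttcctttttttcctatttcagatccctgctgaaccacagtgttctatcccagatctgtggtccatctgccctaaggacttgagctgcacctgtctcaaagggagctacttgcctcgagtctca
Olfml3: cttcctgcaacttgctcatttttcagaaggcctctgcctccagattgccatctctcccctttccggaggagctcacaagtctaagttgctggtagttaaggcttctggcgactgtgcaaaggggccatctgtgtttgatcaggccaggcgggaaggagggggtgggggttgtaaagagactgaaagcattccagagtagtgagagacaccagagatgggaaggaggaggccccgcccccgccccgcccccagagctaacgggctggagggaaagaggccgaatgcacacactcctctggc

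The GAGGAA core stood at position -48 from the start of P2ry13, -144 of Fcrls and -4 of Siglech, the last as its reverse complement, and was in 3 of the 7 genes with a promoter. Of all 17191 genes of the table with a promoter of this length, 5215 held it. Counted by promoter, as a gene can have several, 27.3% of 20754 held it. The longer core GAGGAAGT, which contains GAGGAA, was in 0 of the 7 genes (3.09% of all promoters) and the IRF motif in 0 of the 7 (3.34%). A loose form of the MEF2 motif, with its middle bases left free, was in 1, Cx3cr1 (3.50% of all promoters). The match in Cx3cr1 has a G among these middle bases, so it is a match to the loose form only. A stricter form was not searched. TATAAA was in 1, Fcrls (12.1%). These matches are letters in a window and not sites of binding.

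P2ry12 had 0.702 FPKM in WT_215, 1.60 in WT_116, 0.739 in WT_213 and 0.434 in WT_220 among the controls, and 0.906 in KO_117, 1.24 in KO_214 and 0.748 in KO_218 among the Med23 CKO mice. The highest value was in a control and the lowest in a control, so the groups overlapped. P2ry13 had 0.0669 FPKM in WT_215, 0.249 in WT_116, 0.234 in WT_213 and 0.0176 in WT_220 among the controls, and 0.0372 in KO_117, 0.288 in KO_214 and 0.186 in KO_218 among the Med23 CKO mice. It was lowest in WT_220 and KO_117, the libraries with the least of the myeloid reference. Med12l, the gene around both, had 3.63 FPKM in WT_215, 1.12 in WT_116, 1.88 in WT_213 and 2.14 in WT_220 among the controls, and 3.21 in KO_117, 1.14 in KO_214 and 1.75 in KO_218 among the Med23 CKO mice, and was therefore lowest in WT_116, where P2ry12 was highest. The log2 fold change of P2ry12 was 0.10 (exact permutation p = 0.714, two-sided as all tests here, with a standard error of 0.25), and that of P2ry13 was 0.04 (exact permutation p = 0.771). Log2 fold changes are differences in mean log2(FPKM + 1), Med23 CKO minus control, a scale that understates changes of low genes. Standard errors, here and below, come from the moderated fit of limma and not from the permutation.

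Cx3cr1, the receptor for the neuronal chemokine fractalkine, is on the reverse strand of chromosome 9 (119901616 to 120069879). It had 0.106 FPKM in WT_215, 0.552 in WT_116, 0.782 in WT_213 and 0.0866 in WT_220 among the controls, and 0.109 in KO_117, 0.157 in KO_214 and 0.722 in KO_218 among the Med23 CKO mice. Each group held libraries near 0.1 FPKM and libraries above 0.5 FPKM, and the groups overlapped (log2 fold change -0.05, exact permutation p = 0.914). Fractalkine itself, Cx3cl1, was expressed at 26.3 FPKM in WT_215, 17.7 in WT_116, 23.5 in WT_213 and 33.4 in WT_220 among the controls, and 10.1 in KO_117, 48.3 in KO_214 and 20.4 in KO_218 among the Med23 CKO mice (log2 fold change -0.17, standard error 0.48), a level well above that of its receptor in all 7 libraries.

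Gpr34, a receptor for lysophosphatidylserine, lies on the forward strand of chromosome X (13632089 to 13640858) within Cask, a scaffold gene on the opposite strand that shares 0 of its exon bases. Gpr34 had 0.430 FPKM in WT_215, 0.985 in WT_116, 0.385 in WT_213 and 0.104 in WT_220 among the controls, and 0.233 in KO_117, 0.135 in KO_214 and 0.256 in KO_218 among the Med23 CKO mice. All 3 Med23 CKO values lay between the lowest and the second lowest control value. Its log2 fold change was -0.26 (exact permutation p = 0.286), and leaving out any 1 library gave -0.39 to -0.11. Gpr34 and Siglech were the members with the same direction in all 7 of these.

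Csf1r, the receptor for Csf1 and Il34 on which microglia depend for survival, is on the forward strand of chromosome 18 (61100598 to 61132149). Of its 5774 exon bases, 873 (15.1%) are shared with Hmgxb3 on the opposite strand, which had 7.23 to 12.5 FPKM, and reads over these bases cannot be told apart. Csf1r had 1.58 FPKM in WT_215, 2.45 in WT_116, 4.96 in WT_213 and 0.873 in WT_220 among the controls, and 0.787 in KO_117, 21.2 in KO_214 and 3.78 in KO_218 among the Med23 CKO mice. The Med23 CKO group held both the lowest and the highest library, 27.0 times apart. Its log2 fold change was 0.87 (exact permutation p = 0.514, with a standard error of 0.82), and -0.11 without KO_214. Without KO_117 it was 1.71 (standard error 0.68), with an unadjusted p = 0.0403 and an adjusted p = 0.597 from limma. In that fit 2.54% of all genes tested passed the same unadjusted threshold as higher and 2.88% as lower, against 0.502% and 0.996% with all 7 libraries. The ligand Csf1 had 15.8 FPKM in WT_215, 22.9 in WT_116, 18.3 in WT_213 and 9.48 in WT_220 among the controls, and 9.37 in KO_117, 41.1 in KO_214 and 16.9 in KO_218 among the Med23 CKO mice, and was thus also highest in KO_214.

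Among the remaining surface proteins, Tmem119, a transmembrane protein used to tell microglia from other macrophages, is on chromosome 5 (113793729 to 113800516, reverse strand). It had 0.414 FPKM in WT_215, 0.176 in WT_116, 0.367 in WT_213 and 0.0269 in WT_220 among the controls, and 0.116 in KO_117, 4.04 in KO_214 and 0.349 in KO_218 among the Med23 CKO mice. KO_214 was 15.4 times the median of the other 6 libraries, the other Med23 CKO values lay within the range of the controls, and Tmem119 passed the filter on low values through KO_214. Its log2 fold change was 0.67 (exact permutation p = 0.314, with a standard error of 0.51), and -0.011 without KO_214.

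Fcrls, an Fc receptor-like scavenger protein of microglia, is on chromosome 3 (87250758 to 87263738, reverse strand). It had 0.454 FPKM in WT_215, 3.82 in WT_116, 7.11 in WT_213 and 0.788 in WT_220 among the controls, and 0.752 in KO_117, 9.96 in KO_214 and 2.20 in KO_218 among the Med23 CKO mice. The groups overlapped, and the log2 fold change was 0.31 (exact permutation p = 0.829, with a standard error of 0.80). It was -0.42 without KO_214 and -0.062 without control WT_215. Siglech, a lectin that binds sialic acid (chromosome 7, 55768178 to 55778925, forward strand), had 0.0437, 0.134, 0.0709 and 0.0178 FPKM in the control mice, was listed at 0 in KO_117, and had 0.0550 and 0.0513 FPKM in KO_214 and KO_218. Siglech had the lowest median of the 10 genes, and a log2 fold change of -0.04 (exact permutation p = 0.4) says little at such levels.

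Sall1, a zinc finger factor that maintains the identity of microglia and that neural progenitors also express, is on the reverse strand of chromosome 8 (89027235 to 89044162). It had 13.3 FPKM in WT_215, 7.18 in WT_116, 11.2 in WT_213 and 17.4 in WT_220 among the controls, and 23.2 in KO_117, 9.94 in KO_214 and 10.5 in KO_218 among the Med23 CKO mice. Its highest library was KO_117 and the next was WT_220, the libraries with the least of the myeloid reference. The log2 fold change of Sall1 was 0.19 (exact permutation p = 0.686, with a standard error of 0.38), and -0.18 without KO_117. Across the 7 libraries its log2(FPKM + 1) had a Pearson correlation of 0.87 with the mean of 11 neural stem cell genes and of -0.62 with that of the myeloid reference. All members and lists share the library, its depth and its cell makeup, so these correlations are descriptions. Sall3, a related factor, had 60.9 FPKM in WT_215, 9.75 in WT_116, 21.0 in WT_213 and 67.8 in WT_220 among the controls, and 55.8 in KO_117, 3.12 in KO_214 and 7.77 in KO_218 among the Med23 CKO mice, likewise high in WT_215, WT_220 and KO_117.

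Olfml3, a secreted olfactomedin-like protein, is on the reverse strand of chromosome 3 (103722222 to 103738001). It had 4.62 FPKM in WT_215, 3.56 in WT_116, 8.01 in WT_213 and 6.86 in WT_220 among the controls, and 6.60 in KO_117, 7.36 in KO_214 and 4.33 in KO_218 among the Med23 CKO mice. It was the steadiest of the 9 members that were above 0 in every library, with a highest value 2.25 times the lowest, and its log2 fold change was 0.10 (exact permutation p = 0.8, with a standard error of 0.30). Its correlation with the myeloid reference was 0.20 over the 7 libraries and -0.22 over the 6 without KO_214.

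Over the list, 7 of the 10 genes had a higher mean and 3 a lower mean in Med23 CKO, with a median log2 fold change of 0.10 beside -0.03 over the 14151 genes tested. Without KO_214, the median of the 10 was -0.04. The Med23 CKO and control values overlapped for 10 of 10, where 0.628% of all 24346 genes had every Med23 CKO library over every control library and 1.17% had the opposite. The 6 members with a mean of at least 0.5 FPKM (P2ry12, Tmem119, Csf1r, Sall1, Fcrls and Olfml3) entered limma's moderated test, and at an unadjusted p under 0.05 it called 0 of them higher (0.502% of all genes tested) and 0 lower (0.996%). At an adjusted p under 0.05, 0 members were called, as were 0 of all genes (0%), and with no filter on low values 0 of the 10 were called at an unadjusted p under 0.05.

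**Figure D3:**
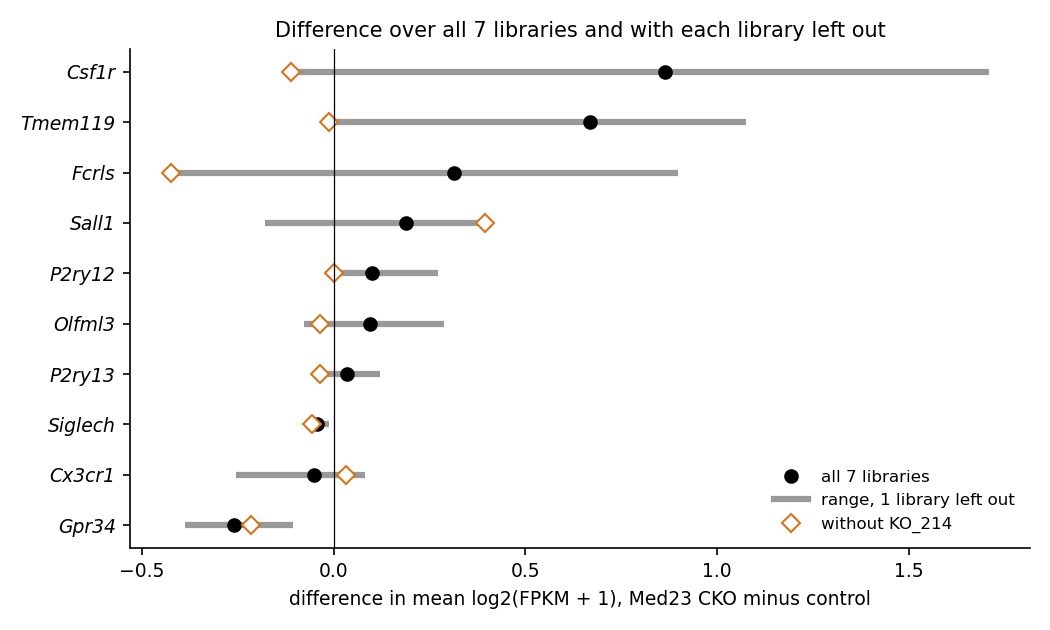
Difference in mean log2(FPKM + 1) between Med23 CKO and control (horizontal axis) for each of the 10 genes: black points over all 7 libraries, grey bars the range with 1 library left out in turn, open diamonds without KO_214. Without KO_214, Csf1r moved from 0.87 to -0.11 and Tmem119 from 0.67 to -0.011.

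The members were next read beside the myeloid reference in the same library, which differed widely in amount between libraries. Csf1r had a similar share in all 7 libraries. It had 21.2% of the geometric mean of the reference in WT_215, 25.1% in WT_116, 29.3% in WT_213 and 32.2% in WT_220 among the controls, and 25.0% in KO_117, 27.0% in KO_214 and 31.5% in KO_218 among the Med23 CKO mice. Between the library with the least and that with the most reference, 2.71 and 78.7 FPKM, Csf1r thus held 32.2% and 27.0% of it. Its correlation with the reference on log2(FPKM + 1) was 0.99 over the 7 libraries and 0.97 over the 6 without KO_214. Coro1a, a reference gene, raised the geometric mean in WT_220 and KO_117 and lowered it in KO_214. The similar share of Csf1r thus rests in part on Coro1a, and shares without that gene were not computed.

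The shares of the sensing receptors differed more between libraries. P2ry12 had 9.44% of the geometric mean of the reference in WT_215, 16.3% in WT_116, 4.37% in WT_213 and 16.0% in WT_220 among the controls, and 28.8% in KO_117, 1.57% in KO_214 and 6.22% in KO_218 among the Med23 CKO mice. It was lowest in KO_214, the library with the most myeloid RNA, and highest in KO_117, one of the 2 with the least. Gpr34 was at 0.171% of the reference in KO_214, against 2.13% to 10.1% elsewhere. Cx3cr1 was at 0.200% there, against 1.43% to 6.01%. For P2ry13 the share was 0.366% in KO_214 and 0.649% to 2.55% elsewhere. All 4 of these G protein-coupled receptors had their lowest share in KO_214, as did 94% of all genes tested, so this by itself is no result about the receptors. The same held for Sall1 (12.6%, against 66.4% to 739% elsewhere) and Olfml3 (9.35%, against 36.0% to 253%), whereas Tmem119 (5.13%, against 0.993% to 5.57% elsewhere) and Fcrls (12.7%, against 6.11% to 42.1%) lay within the range of the other libraries.

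**Figure D4:**
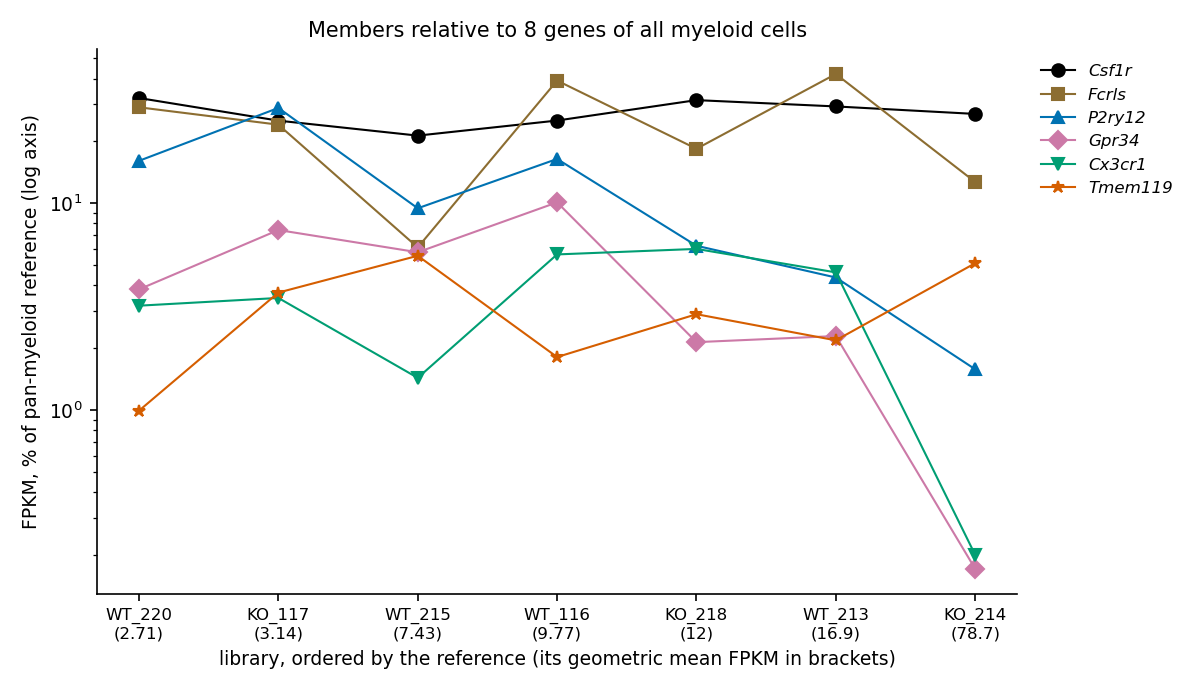
FPKM of 6 members as a percent of the geometric mean FPKM of the 8 myeloid reference genes (vertical axis, log scale) in the 7 libraries, ordered by the reference. Csf1r stayed between 21.2% and 32.2%, in part through the reference gene Coro1a. Gpr34 and Cx3cr1 were at 0.171% and 0.200% in KO_214, where 94% of all genes tested had their lowest share.

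In KO_214 alone, and set against the median of the other 6 libraries, the members thus spread out. Tmem119 was 15.4 times, Csf1r 10.6 times and Fcrls 6.66 times that median, beside 3.94 to 12.4 times for the reference genes. P2ry13 was 2.28 times, P2ry12 1.67 times, Olfml3 1.31 times and Siglech 1.16 times the median. Sall1 (0.811 times), Cx3cr1 (0.475 times) and Gpr34 (0.420 times) were below it. Over all genes tested, the median of this ratio was 1.02, and 23.0% were over 1.5 times. The ratio of Tmem119 is taken over a median of only 0.263 FPKM and is therefore uncertain. KO_214 held the highest of the 7 values for 4 of the 10 members (P2ry13, Tmem119, Csf1r and Fcrls), beside 25.4% of all genes tested and 16 of 20 other microglia genes. This is 1 library, and no other library shows whether a culture with this much myeloid RNA would look the same.

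Between the groups, the level relative to the reference did not separate for any member. The difference, Med23 CKO minus control, of log2(FPKM + 1) less the mean of the reference was 0.00 for Csf1r (exact permutation p = 1), -0.76 for P2ry12 (p = 0.543, exact permutation) and -1.12 for Gpr34 (exact permutation p = 0.429). For the other 7 members it lay between -0.91 and -0.19 (exact permutation p between 0.286 and 0.771). Each of these is the log2 fold change of the member less the difference of the same reference, so they are not separate results. For members under 1 FPKM, the value and its p mostly reflect the reference. The 8 reference genes had a median log2 fold change of 0.87, and -0.27 without KO_214. Without KO_214 the differences of P2ry12 and Gpr34 were 0.26 and 0.039, so their direction rested on that library.

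Other genes of microglia and of related cells were read from fixed lists. Of 20 further microglia genes, 19 had a higher mean in Med23 CKO. Their median log2 fold change was 0.58, beside -0.03 over all genes tested, and it was -0.06 without KO_214. Among the 18 tested, 1 passed an unadjusted p under 0.05 as higher (0.502% of all genes tested) and 0 as lower (0.996%). It was Tgfbr1, the type I receptor for TGF-beta, named after its value was seen, with 12.1 FPKM in WT_215, 9.62 in WT_116, 10.4 in WT_213 and 8.03 in WT_220 among the controls, and 14.2 in KO_117, 15.1 in KO_214 and 14.8 in KO_218 among the Med23 CKO mice (log2 fold change 0.52, standard error 0.19, adjusted p = 1 from limma). Each Med23 CKO library was over each control library, as for 0.784% of all genes tested. Tgfbr1 is expressed by many cell types, and its log2 fold change was 0.50 without KO_214.

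Of 13 genes of signals that act on microglia, 0 passed an unadjusted p under 0.05 as higher (0.502% of all genes tested) and 1 as lower (0.996%). Itgb8, the integrin chain with which neural cells release active TGF-beta, had 48.9 FPKM in WT_215, 28.2 in WT_116, 31.7 in WT_213 and 28.8 in WT_220 among the controls, and 11.5 in KO_117, 21.4 in KO_214 and 20.6 in KO_218 among the Med23 CKO mice. Each of the Med23 CKO libraries was under each control, as for 1.53% of all genes tested. Its log2 fold change was -0.92 (standard error 0.29, adjusted p = 1 from limma), and -1.07 without KO_214. The median of the 13 genes was 0.19, and -0.31 without KO_214.

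Of 16 transcription factors of myeloid cells and microglia, 0 passed an unadjusted p under 0.05 in either direction. Over all genes tested, 0.502% passed as higher and 0.996% as lower, so a count of 0 is no result about these factors. The Med23 CKO group had the higher mean for 12 of them. Their median log2 fold change was 0.24 (-0.38 without KO_214), beside -0.03 over all genes tested. Genes of activated microglia spanned a wide range of levels, with control medians from 0.278 FPKM for Cst7, named after its value was seen, to 614 FPKM for Cd63. Spp1, a secreted phosphoprotein raised in activated microglia, had 329.9 FPKM in WT_215, 922 in WT_116, 644 in WT_213 and 97.6 in WT_220 among the controls, and 69.9 in KO_117, 5419.7 in KO_214 and 733 in KO_218 among the Med23 CKO mice. Gpnmb, a glycoprotein of the same state, had 12.7 to 124.8 FPKM in the controls and 18.0, 594.5 and 77.8 FPKM in KO_117, KO_214 and KO_218. Of the 16 genes of this list, 15 were highest in KO_214, beside 25.4% of all genes tested. Of the 15 tested, 0 passed an unadjusted p under 0.05, beside 0.502% of all genes tested as higher and 0.996% as lower. The median log2 fold change of the list was 0.71, and -0.33 without KO_214.

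Genes of border macrophages, the macrophages of vessels and meninges, were at a mean log2(FPKM + 1) of 0.44 to 1.15 in the controls and 0.62, 2.26 and 1.11 in KO_117, KO_214 and KO_218. Of the 7 tested, 1 was higher at an unadjusted p under 0.05, the platelet chemokine gene Pf4 (0.502% of all genes tested passed as higher), with 1.15 FPKM in WT_215, 1.47 in WT_116, 1.15 in WT_213 and 1.20 in WT_220 among the controls, and 7.55 in KO_117, 2.14 in KO_214 and 3.86 in KO_218 among the Med23 CKO mice (log2 fold change 1.18, standard error 0.34, adjusted p = 1 from limma). Each Med23 CKO library was over each control for Pf4, as for 0.784% of all genes tested, and KO_117 was the highest. Ms4a7, the most abundant gene of the list, had 1.05, 42.8 and 3.43 FPKM in KO_117, KO_214 and KO_218 beside 0.672 to 7.77 in the controls. The median log2 fold change of the 10 genes was 0.50, and -0.12 without KO_214. Blood cell genes were scarce. The summed FPKM of 9 genes of monocytes and neutrophils was 1.35 to 3.05 in the controls and 0.217, 20.1 and 1.97 in KO_117, KO_214 and KO_218, of which S100a8 made up 17.2 FPKM in KO_214. Ccr2, the chemokine receptor of blood monocytes, named after its value was seen, was at or under 0.0688 FPKM in every library, and the summed FPKM of 8 lymphocyte genes was between 0.473 and 1.13.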

How the data were processed

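RNA of primary hippocampal neurospheres from single mice was measured in 7 libraries (4 control, 3 Med23 CKO), grouped by the genotype label, with mouse numbers from the sample titles. The authors removed adapters, mapped reads to mm10 by TopHat with its default settings and calculated FPKM per gene with Cuffdiff, which they deposited per library. The gene annotation is not given in the sources used here. The deposited table also holds the authors' own comparison (group means, log2 fold change, test statistic, p-value, q-value), which was not used. No counts were used, and whole fragments could not be read off the lowest FPKM values (in 21 pairs of libraries, at most 4.56% of low genes shared a ratio within 0.05 log2), so depth is unknown, no interval that needs it is given, and the number of libraries limits the precision. Columns of samples without a group numbered 0, and 0 pairs of libraries were identical.

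Values were analysed as log2(FPKM + 1). The 14151 genes with a mean of at least 0.5 FPKM were tested with limma 3.58.1 in R 4.3.3 (lmFit, eBayes with trend, two-sided, Benjamini-Hochberg adjustment over all of them). Single genes were tested by exact permutation over 35 splits, where the smallest p is 0.0286. P-values measure the spread between single mice. The members and lists were chosen with earlier results of these data known. Named genes are the members, the 4 most abundant genes of each list, genes overlapping a member, and the 10 genes most correlated with the mean of the members, and a gene outside this rule is marked in the text. Vsir was matched through its synonym and Ly6g was not found. Positions are from GENCODE M21 and promoters from RefSeq, both on GRCm38, which is mm10. Promoters of Tmem119, Csf1r and Gpr34 were not used here, and protein sequences were not used here. Alternatives were a pseudocount of 0.1, no filter or a mean of at least 1 FPKM, quantile normalization, median centring, no trend, array weights, a covariate from the leading digit of the mouse number, leaving out each library, and a reference of 7 other myeloid genes. Figures and permutations used Python 3.11.15.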

Additional observations from a re-analysis of the deposited data

How the results depend on the processing

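The count of members called at an adjusted p under 0.05 was 0 under every alternative run, and at an unadjusted limma p under 0.05 the count of lower members was 0 as well. The count higher was 0 to 1 when single libraries were left out, the 1 being Csf1r without Med23 CKO mouse KO_117, where the count over all genes rose from 71 of 14151 to 362 of 14225, and 0 under the others. With array weights 193 of all genes tested were higher and 887 lower at that threshold, beside 71 and 141. The median log2 fold change of the 10 genes was 0.10, and -0.04 to 0.24 with each library left out. Single log2 fold changes turned sign in 20 of 150 recomputed values, among them 6 of 15 for Cx3cr1 and 2 of 15 for P2ry13, whose values lay near 0, and in 0 of 15 for Gpr34 and for Siglech. With each library left out they ranged from -0.014 to 0.27 for P2ry12, -0.011 to 1.08 for Tmem119, -0.11 to 1.71 for Csf1r, -0.18 to 0.39 for Sall1, -0.42 to 0.90 for Fcrls and -0.077 to 0.29 for Olfml3, and with array weights, whose estimate stopped before full convergence, they were -0.049 for Sall1, -0.062 for Fcrls, -0.25 for Olfml3 and 0.16 for Cx3cr1. The cause was not tested. Relative to the myeloid reference, which all members share, 16 of 90 recomputed differences turned sign. The ranges with each library left out were -1.69 to 0.26 for P2ry12, -1.68 to 0.22 for P2ry13, -0.73 to 0.24 for Tmem119, -1.74 to 0.29 for Cx3cr1, -0.10 to 0.14 for Csf1r, -1.82 to 0.20 for Siglech, -2.08 to 0.039 for Gpr34, -1.98 to 0.65 for Sall1 and -1.77 to 0.22 for Olfml3. With a pseudocount of 0.1 the value of Tmem119 was 0.37, and with 7 other reference genes that of Csf1r was -0.023. With 1 library left out, permutation cannot reach a p under 0.05. The methods describe the controls as littermates, but the labels name no litters, so no analysis paired by litter was possible. Depth is unknown, so the lowest members cannot be told from 0.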

Other observations

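Genes with a pattern across the 7 libraries like the mean of the 10 members were sought among all genes tested. The 10 with the highest Pearson correlation on log2(FPKM + 1) were Ptprm, Itgax, Tfec, Tlr1, Foxf2, Ecscr, Btk, Scarf1, Gpr84 and Tie1, with correlations of 0.984 to 0.993. Btk, a kinase of B cells and myeloid cells, had 0.403 FPKM in WT_215, 1.03 in WT_116, 2.43 in WT_213 and 0.239 in WT_220 among the controls, and 0.115 in KO_117, 6.83 in KO_214 and 1.06 in KO_218 among the Med23 CKO mice. Tie1, a receptor of endothelial cells, followed the same order of libraries at the top, with 9.52 FPKM in KO_214 and 3.88 FPKM in WT_213. The mean of the members is led by Csf1r and Fcrls, which vary most on this scale, and all values of a library share its depth and cell makeup.

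P2ry14, a receptor for UDP-glucose that lies with P2ry12 and P2ry13 inside Med12l and is not one of the 10 genes, had 0.990 FPKM in WT_215, 0.367 in WT_116, 0.842 in WT_213 and 0.0559 in WT_220 among the controls, and 0.171 in KO_117, 5.75 in KO_214 and 0.575 in KO_218 among the Med23 CKO mice. In KO_214 it was 12.2 times the median of the other 6 libraries, beside 1.67 times for P2ry12 and 2.28 times for P2ry13. Its log2 fold change was 0.61 (standard error 0.60 from limma), and -0.16 without KO_214.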
